A study of Mus musculus with 4 samples.

Results

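The genes described here encode the core of the spliceosome and the RNA-binding proteins that steer it: SR proteins, SR-related matrix proteins, SF3A and SF3B subunits, U2AF subunits, snRNP proteins, hnRNP proteins and numbered Rbm proteins. They were chosen by symbol alone, as every symbol of the deposited RefSeq table that begins with Srsf, Sf3a, Sf3b, Hnrnp, Rbm, Snrp or U2af (Srsf and Rbm only when a digit follows), together with Srrm1 and Srrm2. Snrpn and symbols marked as pseudogenes were left out, which gave 96 members of 19797 symbols. By role these were 11 SR proteins, 2 SR-related matrix proteins, 9 SF3A and SF3B subunits, 3 U2AF subunits, 11 snRNP proteins, 20 hnRNP proteins, 18 Rbm genes with a known part in splicing, 19 other Rbm genes, 2 antisense RNAs and 1 read-through gene. The symbol families therefore also hold genes whose known work lies outside splicing.

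The RNA came from MC1-ZE7, a mouse embryonic stem (ES) cell line of strain MC1 (129S6/SvEvTac) in which the fluorescent protein Emerald reports Zscan4, a group of neighbouring genes transcribed in early embryos and, at any time, in a small share of ES cells. Cells grown on gelatin without feeders, in serum and LIF, were sorted into a high-fluorescence fraction (Em+, 2 libraries) and an Emerald-negative fraction (Em-, 2 libraries). The groups share the line, the reporter and the medium, and no further allele or agent is named for either. The line is a single reporter line, and no label states that replicates came from different cultures or sorts. A p-value here therefore reflects library-to-library spread, part or all of which can be technical. Ribosomal RNA was depleted and the libraries were stranded, so the counts hold unspliced and non-coding as well as messenger RNA.

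Splicing removes introns in a fixed order of contacts. The U1 snRNP pairs with the start of the intron, U2AF reads the end of it, and SF3A and SF3B hold the U2 snRNP at the branch point; SR proteins usually favour the use of an exon they bind, and hnRNP proteins often oppose it. Drugs that inhibit SF3B1 are known to push mouse ES cells towards a transcription state like that of early embryos. The comparison asks whether the levels of these genes differ between Zscan4-reporting and non-reporting cells.

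Of the members, the gene with the clearest difference in a part of its transcripts was Rbm25, and the sequences that separate these transcripts are shown here. Each run covers a splice junction of Rbm25 on chromosome 12 (plus strand, GRCm38, the same assembly as mm10, from the transcripts of GENCODE vM21). Capitals mark the last 12 bases of the exon on the left, and the lower-case bases are the first 15 of the shared exon (chr12:83642629-83642749) followed by the annotated start codon atg. The annotation gives the exons on the left as 5′ UTR.
ENSMUST00000181983: ACCCAGTAATTTactggtgcagtcagaatg
ENSMUST00000182004: ACAAGAGCTTCTactggtgcagtcagaatg
ENSMUST00000048155: TCTTAGCGGCGGactggtgcagtcagaatg
In ENSMUST00000048155, the reference form, the capitals end the first exon (chr12:83632252-83632417). In ENSMUST00000181983 they end an exon that lies upstream of the reference start (chr12:83631469-83631622). ENSMUST00000182004 also has its first exon upstream of the reference start (chr12:83631339-83631356), and its capitals end a further exon (chr12:83639128-83639191).

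RefSeq counts totalled 17927765 and 16468218 in the Em+ libraries, against 18364973 and 18953217 in the Em- libraries (replicate 1 first). Levels below are the authors' FPKM values (fragments per transcript length and library size), summed over a symbol's transcripts and multiplied by 1 factor per library from TMM scaling. Folds and tests are from edgeR's quasi-likelihood test on counts, with Benjamini-Hochberg adjustment over 12050 genes whose FPKM averaged 1 or more, and a threshold of 0.05. In Em+ replicate 2, Rn45s, a ribosomal RNA precursor model, took 7.95% of counts against 3.93% to 4.33% in the other libraries. In that library RefSeq counts were 43.45% of the authors' library total. They were 49.01% in Em+ replicate 1 and 51.15% and 50.73% in the Em- libraries. The chi-square per degree of freedom between replicates was 34.8 in Em+ and 4.28 in Em-. It was taken over all tested genes, Rn45s among them, so it is not separate from the Rn45s share. Nor does it show which Em+ replicate departs. Levels and their order are those of the RefSeq table unless another is named. The summed level of 6 markers of the Zscan4-positive state was 48.4 and 51.1 in Em+ libraries, against 0.427 and 0.516 in Em- libraries, and 7 ES cell markers summed to 1495 and 1287 against 1558 and 1529. Of 6 fibroblast or feeder markers, 3 (Col3a1, Postn and Lum) were not listed in the table, and the other 3, of which 1 averaged at least 1 FPKM, summed to 6.01 and 5.82 in Em+ libraries and 3.06 and 3.27 in Em- libraries. Lists for primitive endoderm, mesoderm, neural and trophoblast cells summed to between 1.32 and 10.4 in every library. The part of any of these in the results below was not tested.

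Across the set, 1 of 89 tested members was called higher in Em+ cells and 0 were called lower. Among all 12050 genes the shares were 3.82% higher and 0.822% lower. DESeq2 called 2 members higher, Rbm44 and Rbm25, and 0 lower (4.38% and 1.25% of all genes). At an unadjusted p under 0.05, edgeR gave 9 members higher and 7 lower, which is 10.1% and 7.87% of the members, against 14.5% and 10.7% of all genes. The median log2 fold change (Em+ over Em-) was -0.02 over the members, with quartiles of -0.11 and 0.12, and 0.00 over all genes tested, with quartiles of -0.12 and 0.16. It was positive for 39 members and negative for 50, and positive for 6112 and negative for 5938 of all genes tested. The 2 groups of libraries did not overlap for 52 of the 89 members (58.4%), and this was so for 59.4% of all genes. Member transcripts made up 1.54% and 1.52% of counts in Em+ libraries and 1.52% and 1.53% in Em- libraries.

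The intervals give the precision of each fold, gene by gene, under TMM scaling. They reflect only the spread between these libraries and do not bound differences between other cultures or sorts. For 81 of the 89 members the 95% interval of the fold lay within 1.5-fold in either direction, against 77.6% of all genes. Members are also more abundant, with a median of 20.2 scaled FPKM against 6.88 for all genes tested, and depth narrows an interval. The 8 members whose interval reached past 1.5-fold were Rbm12b1, Rbm12b2, Rbm33, Rbm3os, Rbm44, Srrm1, Srrm2 and Srsf12. Because these are bulk libraries, a change in the share of cells that express a gene and a change in RNA per cell cannot be told apart.

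**Figure D1:**
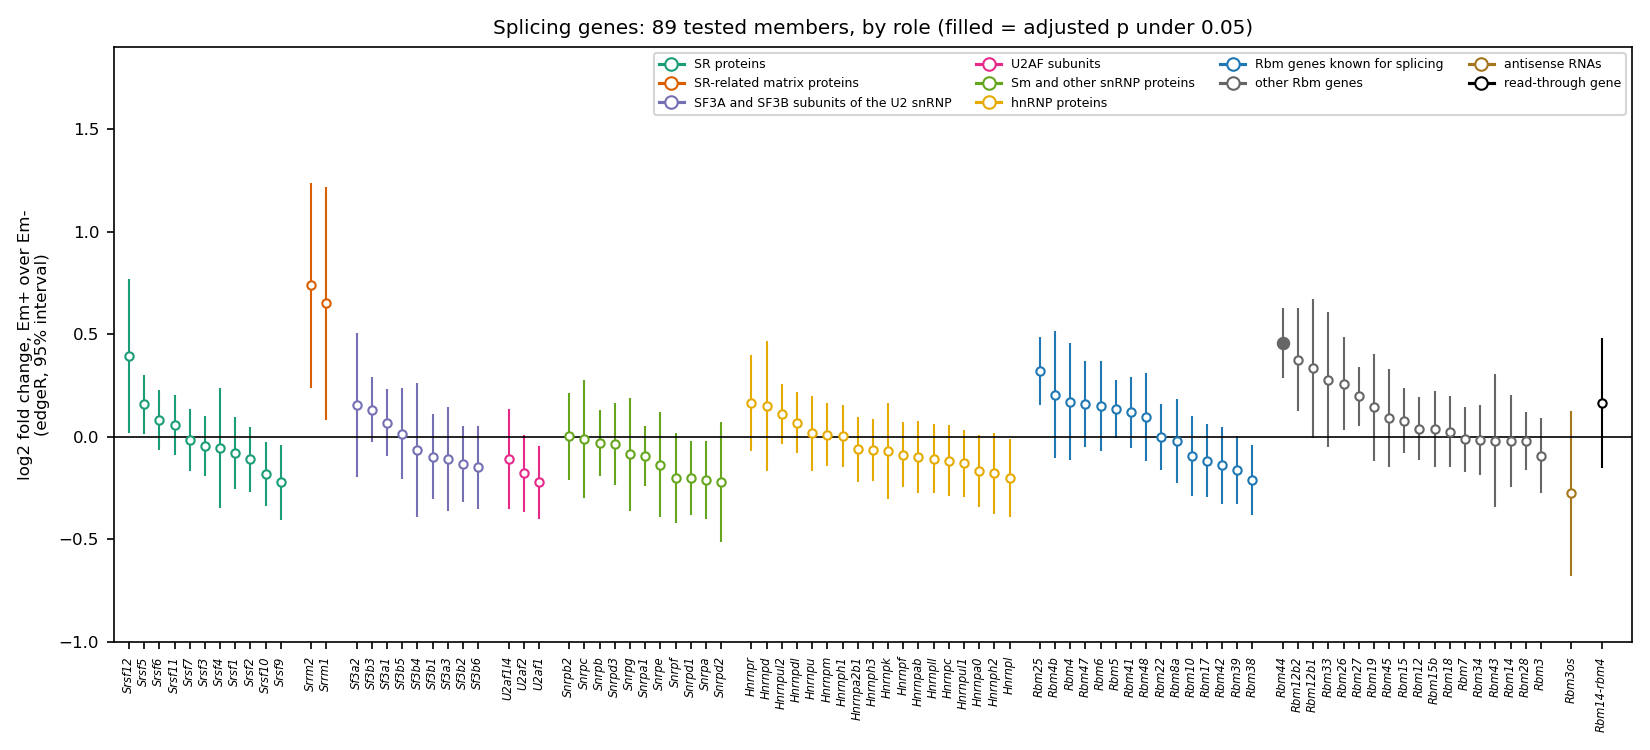
Log2 fold change (Em+ over Em-, edgeR, vertical axis) with its 95% interval for the 89 tested members, grouped by role; a filled point has an adjusted p under 0.05. Only Rbm44 is filled, most points lie between -0.2 and 0.2, and Srrm1 and Srrm2 have the highest points and wide intervals.

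Rbm44 was the member that passed the test. It encodes an RNA-binding protein that in mouse germ cells sits at the bridges between dividing cells, and it has no established role in splicing. Its level (chromosome 1, 91145103 to 91170795) was 7.22 and 7.17 scaled FPKM in Em+ libraries, against 5.18 and 5.30 in Em- libraries. The Em+ libraries lay close together and above both Em- libraries. The means were 7.19 ± 0.0364 in Em+ cells and 5.24 ± 0.0807 in Em- cells (SD, n = 2 each), which edgeR estimated as 1.37-fold higher (log2 fold change 0.46, SE 0.07, 95% interval 1.22 to 1.54-fold, adjusted p = 0.0141). The estimate rests on 1041 and 912 counts in Em+ libraries and 758 and 808 in Em- libraries. Without Em+ replicate 2 the log2 fold change was 0.46 (edgeR adjusted p = 0.000641), and without Em- replicate 1 it was 0.44, which missed the threshold (edgeR adjusted p = 0.0910). The call was also lost with the authors' library totals as the only scaling, where the log2 fold change was 0.30 (edgeR adjusted p = 0.249) while the median of all genes moved to -0.16.

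A further germ cell gene of the family, Rbm46, whose protein is required for meiosis in mouse testis, was too low to be tested. It had 0.789 and 0.827 scaled FPKM in Em+ libraries, from 106 and 98 counts, against 0.513 and 0.485 in Em- libraries, from 70 and 69 counts. With no filter on level, its log2 fold change was 0.63, which missed the threshold (edgeR adjusted p = 0.0529). Rbm20, a splicing repressor known from heart muscle, had 0.887 and 0.969 scaled FPKM in Em+ libraries and 0.599 and 0.674 in Em- libraries, and in that same fit its log2 fold change was 0.48 (edgeR adjusted p = 0.0591). Rbm24, Rbm11 and Rbm46os stayed below 0.4 scaled FPKM in every library. Hnrnpa1 and Hnrnpa3, the remaining members below the filter, are taken up with the hnRNP proteins.

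Rbm25 encodes a U1-associated splicing regulator, known in human cells for tuning the splicing of the apoptosis gene BCL2L1. By RefSeq symbol (chromosome 12, 83632234 to 83683123) its level was 81.2 and 83.4 scaled FPKM in Em+ libraries, against 65.7 and 66.2 in Em- libraries. The groups did not overlap and replicates differed little, but the 1.25-fold difference missed the threshold (log2 fold change 0.32, SE 0.07, edgeR adjusted p = 0.0514). With no filter on level the log2 fold change of Rbm25 was 0.26 (edgeR adjusted p = 0.0816). With the authors' library totals as the only scaling it was 0.16 (edgeR adjusted p = 0.606), while the median of all genes moved to -0.16. The gene was called by DESeq2 (adjusted p = 0.00911) and in the fits without Em+ replicate 1 and without Em+ replicate 2 (edgeR adjusted p of 4.03e-05 and 0.000251), and it was not called without Em- replicate 1 or 2 (0.586 and 0.480). Summed over all models listed under Rbm25 in the other annotations, the log2 fold change was 0.43 in the known-gene table, 0.90 in the Ensembl table and 0.89 in the ENCODE table, with edgeR adjusted p-values of 0.0209, 0.00177 and 0.00143. The Ensembl and ENCODE sums hold ENSMUST00000183323, which GENCODE vM21 places on the minus strand as the antisense gene Gm29361 (2086 and 2369 counts in Em+ libraries, against 696 and 762 in Em- libraries), and a single-exon model inside the first intron, ENSMUST00000182881. Use of strand in counting is not given in the sources used here, so reads of the antisense gene and of Rbm25 cannot be told apart where they overlap. Without the antisense model the log2 fold change was 0.80 in the Ensembl table and 0.79 in the ENCODE table, and without both models it was 0.71 and 0.70 (edgeR adjusted p of 0.00295 and 0.00247). These last sums still hold further single-exon models and are not a value for spliced transcripts alone. In the Ensembl table ENSMUST00000182032 had a log2 fold change of 0.73 and ENSMUST00000183242 one of 0.63.

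The models with the largest differences started near or upstream of the 5′ end of the RefSeq model. These single-transcript fits were added after the difference between tables had been seen. ENSMUST00000182004, whose junction is printed above, starts 0.895 kb upstream of the RefSeq start and spans chr12:83631339-83646232. It held 364 and 377 counts in Em+ libraries, against 14 and 17 in Em- libraries. In scaled FPKM it was at 19.3 and 22.7 in Em+ libraries and at 0.733 and 0.853 in Em- libraries, so that every Em+ value lay far above every Em- value. Its log2 fold change was 4.71 (SE 0.19, edgeR adjusted p = 2.81e-08), a 26.1-fold difference, and it was called without each of the 4 libraries in turn, with values of 4.60 to 4.82.

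The other models with the upstream start held the same pattern. AK162135 of the known-gene table, from 83631236 to 83674663, had 365 and 380 counts in Em+ libraries and 14 and 17 in Em- libraries (log2 fold change 4.70, SE 0.19, edgeR adjusted p = 2.24e-06). ENSMUST00000181983, the longer upstream model, had 67 and 80 counts in Em+ libraries and 4 and 3 in Em- libraries, and its mean FPKM was below the filter. Since these models overlap, they may hold the same reads and are not separate evidence. The reference form ENSMUST00000048155, which starts at 83632252, had 212 and 217 counts in Em+ libraries and 47 and 51 in Em- libraries, also below the filter on FPKM.

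Among models that start within 0.1 kb of the RefSeq start, the log2 fold change was 1.78 for ENSMUST00000182618, 1.19 for ENSMUST00000183154, 1.04 for ENSMUST00000182036, 0.97 for ENSMUST00000182347 and 0.95 for ENSMUST00000182633. All 5 were called. ENSMUST00000182881, a single-exon model inside the first intron of the reference form (chr12:83634770-83639377), had 2996 and 3702 counts in Em+ libraries and 1677 and 1827 in Em- libraries, and its log2 fold change was 1.08 (SE 0.13, edgeR adjusted p = 0.000566). It spans the third exon of ENSMUST00000182004. Near the 3′ end, ENSMUST00000182840 and ENSMUST00000183181 had log2 fold changes of 0.46 and 0.44 (edgeR adjusted p of 0.0192 and 0.0261), and their calls were lost without either Em- library. ENSMUST00000183323, the antisense model that the table lists under Rbm25, was at 1.76 (edgeR adjusted p = 2.5e-06). It had 2086 and 2369 counts in Em+ libraries and 696 and 762 in Em- libraries (log2 fold change 1.76, SE 0.12, edgeR adjusted p = 2.52e-06). Whether the counting used strand is not given in the sources used here, so reads of the intron and of the antisense gene cannot be told apart.

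**Figure D2:**
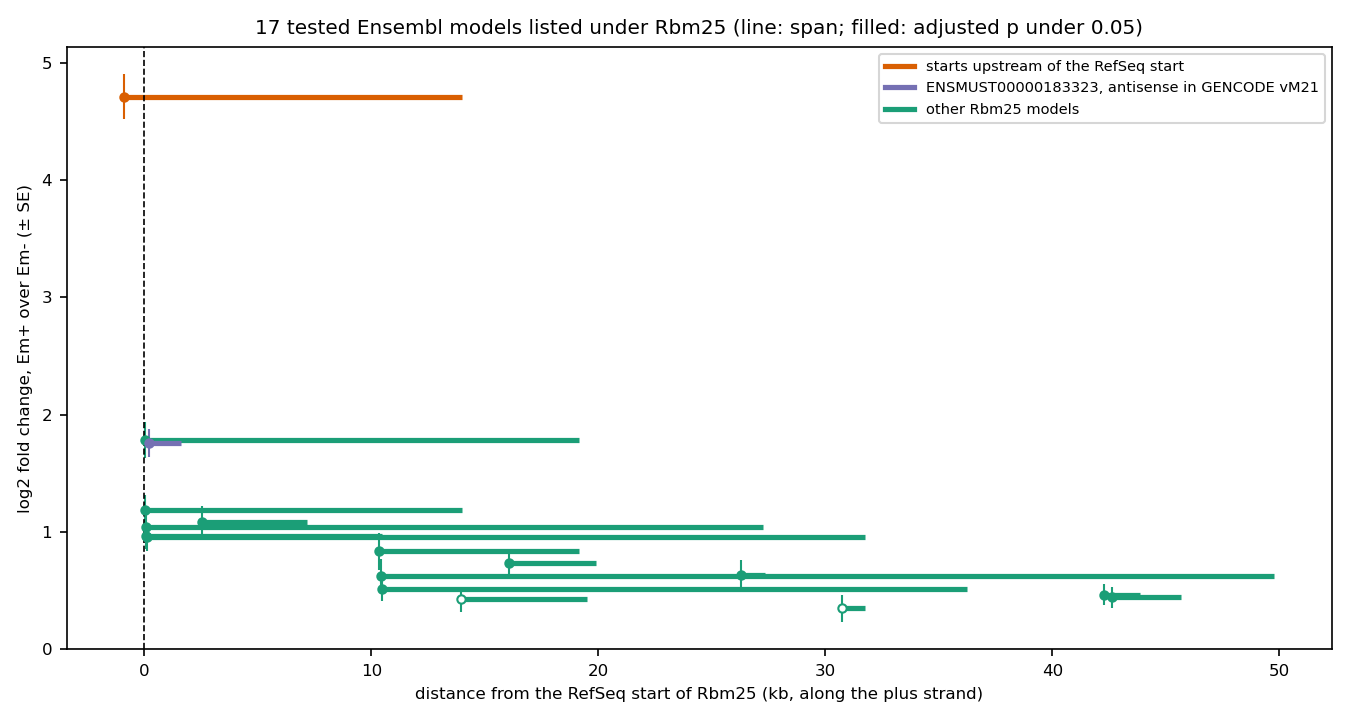
Log2 fold change (Em+ over Em-, edgeR; error bar, SE) of the 17 tested Ensembl models listed under Rbm25, each drawn as a line over its span in kb from the RefSeq start. The upstream model stands at 4.71, models that start near 0 kb lie between 0.95 and 1.78, and those past 40 kb lie at 0.44 and 0.46.

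Of 355 tested Ensembl transcripts of members, 16 were called, each of them higher, and these were 14 Rbm25 models, the antisense model ENSMUST00000183323 and the single Rbm44 model. In the same fit 2.1% of 32090 transcripts were called higher and 0.249% lower. The ENCODE table gave the same counts, 14 for Rbm25 and 1 each for the antisense model and Rbm44, of 356 tested (2.1% and 0.289% of its transcripts). The known-gene table gave 4 of 165, of which 3 were Rbm25 and 1 was Rbm44 (2.72% and 0.473%). RefSeq gave only Rbm44, 1 of 101 (3.96% and 1.05%), and it lists a single Rbm25 transcript, which starts at the reference start. Most of the Rbm25 models overlap others, and the way reads were divided among them is not given in the sources used here, so their number does not measure how many transcripts changed. The count of a model also differed between tables. NM_027349 had 12902 and 11688 counts in Em+ libraries and 10579 and 11128 in Em- libraries in the RefSeq table (log2 fold change 0.32). In the known-gene table, which lists 5 models under Rbm25, it had 655 and 605 counts in Em+ libraries and 358 and 315 in Em- libraries (log2 fold change 1.03, edgeR adjusted p = 0.000938).

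Srrm1 and Srrm2, the SR-related matrix proteins, had the largest fold changes of the set and did not pass the test. SRRM2 is a scaffold of nuclear speckles, where splicing factors gather, and SRRM1 is a coactivator that bridges SR proteins and snRNPs. Srrm2 (chromosome 17, 23803187 to 23824743) was at 35.0 and 59.8 scaled FPKM in Em+ libraries, against 28.2 and 28.6 in Em- libraries. Srrm1 (chromosome 4, 135320484 to 135353214) was at 12.9 and 24.0 in Em+ libraries, against 11.3 and 12.2 in Em- libraries. For both genes Em+ replicate 2 was far above the other libraries. Em+ replicate 1 was above the Em- libraries by less, and only slightly so for Srrm1. The log2 fold change of Srrm2 was 0.74 (SE 0.21, edgeR adjusted p = 0.0955) with all libraries, 1.07 without Em+ replicate 1 and 0.30 without Em+ replicate 2, where it was called (edgeR adjusted p = 0.000265). That of Srrm1 was 0.65 (SE 0.24, edgeR adjusted p = 0.158), 1.03 without Em+ replicate 1 and 0.14 without Em+ replicate 2, where it was not called (edgeR adjusted p = 0.146). Without Em- replicate 1 these were the 2 members called higher (3.79% of all genes), and without Em- replicate 2 they were called with Rbm44 and Rbm12b2 (4.27%). Both were also called in a fit with the replicate number as a block, in which 5 members were called higher (Rbm12b2, Rbm25, Rbm44, Srrm1 and Srrm2) and 0 lower, against 9.05% and 3.83% of all genes.

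**Figure D3:**
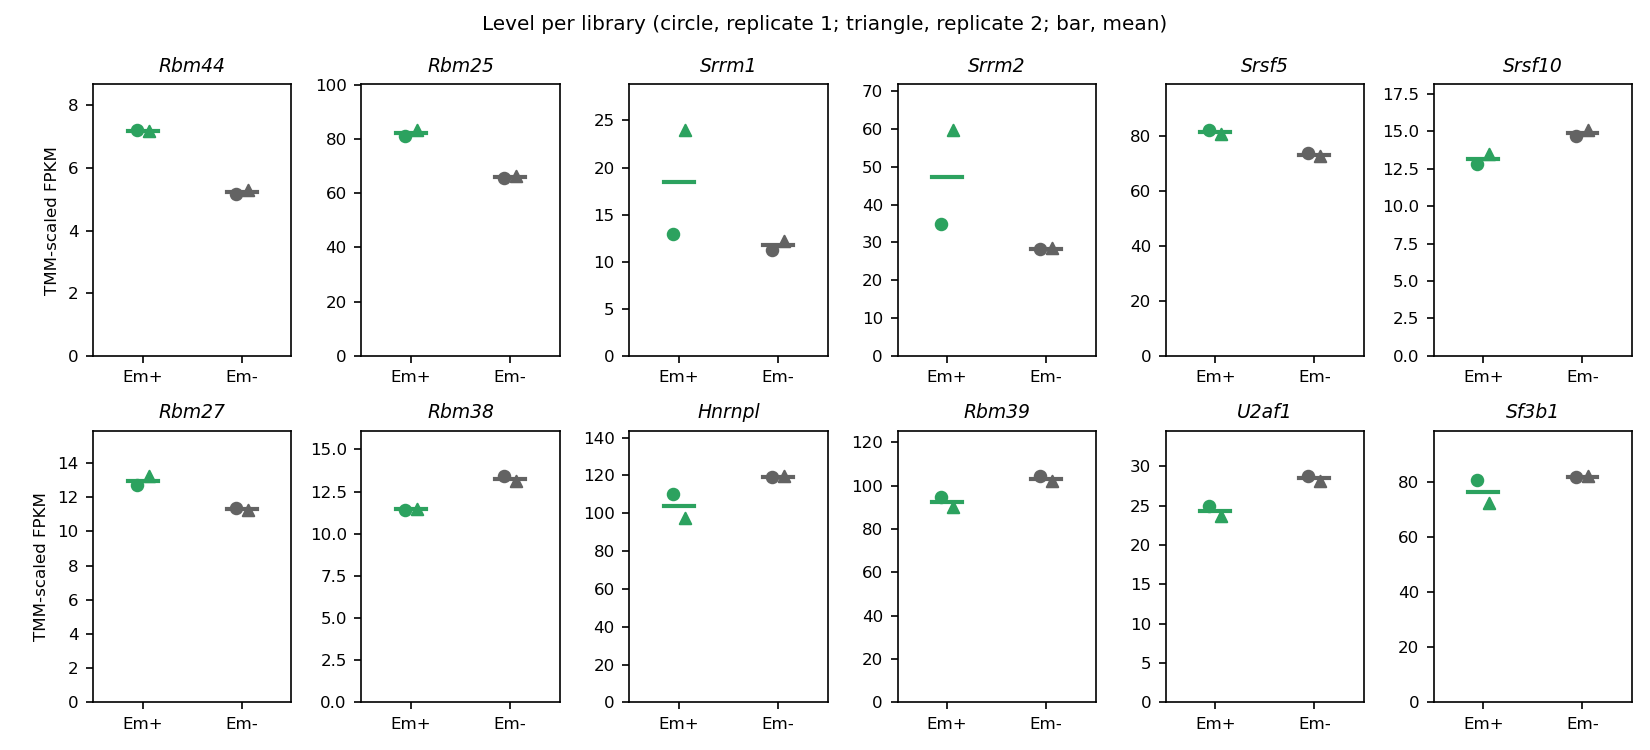
TMM-scaled FPKM per library for 12 members, with Em+ libraries on the left and Em- libraries on the right of each panel; circles are replicate 1, triangles replicate 2 and bars the group means, and every axis starts at 0. Rbm44 and Rbm25 have tight, separate groups, while the Em+ replicates of Srrm1 and Srrm2 lie far apart, at 12.9 and 24.0 and at 35.0 and 59.8.

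The ratio between the Em+ replicates ran with transcript length over the members. Spearman's rho of that ratio with the length of the main transcript was 0.375 over the 89 members and 0.274 over all genes tested, and between the Em- replicates it was 0.106 and 0.097; genes share their libraries here and these values carry no test. The median absolute log2 ratio between replicates was 0.11 in Em+ and 0.04 in Em- for the members. Srrm2 (8600 bases) was 1.71-fold higher in Em+ replicate 2 than in Em+ replicate 1, and Snrpd2 (488 bases) was at 0.800-fold. Others went against length, such as Snrpg (393 bases, 1.117-fold) and Sf3b1 (6191 bases, 0.8945-fold). The ends of the range were Srrm1 (3732 bases, 1.857-fold) and Srsf12 (2939 bases, 0.784-fold). The cause was not tested.

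**Figure D4:**
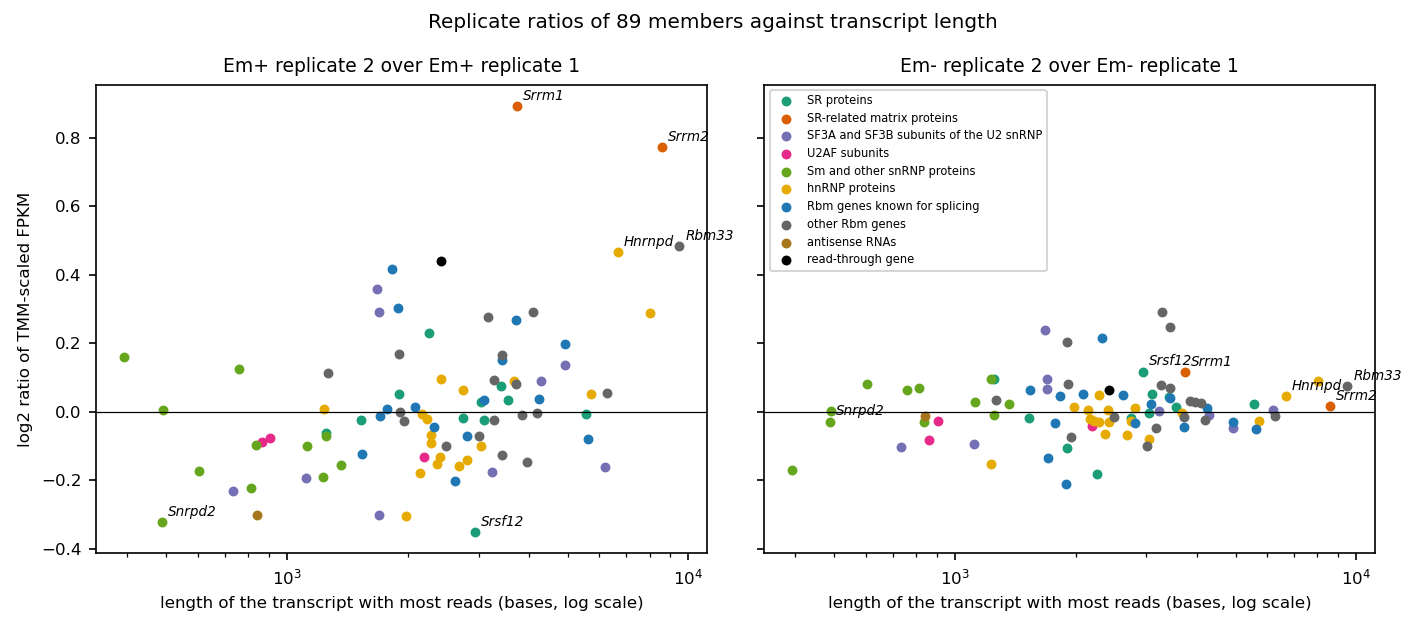
Log2 ratio of scaled FPKM between the 2 replicates of a group (vertical) against the length of the transcript with most reads (bases, log axis) for the 89 tested members, Em+ on the left and Em- on the right. Em+ ratios reach 0.89 for Srrm1 and 0.77 for Srrm2 and are mostly below 0 for the shortest members, while Em- ratios stay closer to 0.

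Each Em+ library was also set alone against both Em- libraries. In such a fit the lone Em+ library is assumed to vary like the Em- libraries, so more genes pass. Counts of members are out of the 89 tested. Without Em+ replicate 1, 21 members were called higher and 25 lower, against 21.9% and 19.5% of all genes. Without Em+ replicate 2, 6 were called higher and 5 lower, against 9.43% and 6.9% of all genes. The fits share the Em- libraries and are not independent, so their values are given side by side. Given first with Em+ replicate 1 left out and then with Em+ replicate 2 left out, the log2 fold change of Rbm44 was 0.45 and 0.46, that of Rbm25 0.34 and 0.30, that of Rbm27 0.22 and 0.17 and that of Srsf5 0.14 and 0.17. In the same order it was -0.30 and -0.12 for Hnrnpl, -0.20 and -0.13 for Rbm39, -0.21 and -0.22 for Rbm38 and -0.14 and -0.22 for Srsf10. These 8 genes, like Srrm2, are named because they were past the threshold in each of the fits, so their like values follow from that choice. Other members had unlike values in the same order, such as -0.23 and 0.07 for Hnrnpk, 0.37 and -0.07 for Rbm14-rbm4 and -0.12 and 0.05 for Snrpd3.

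**Figure D5:**
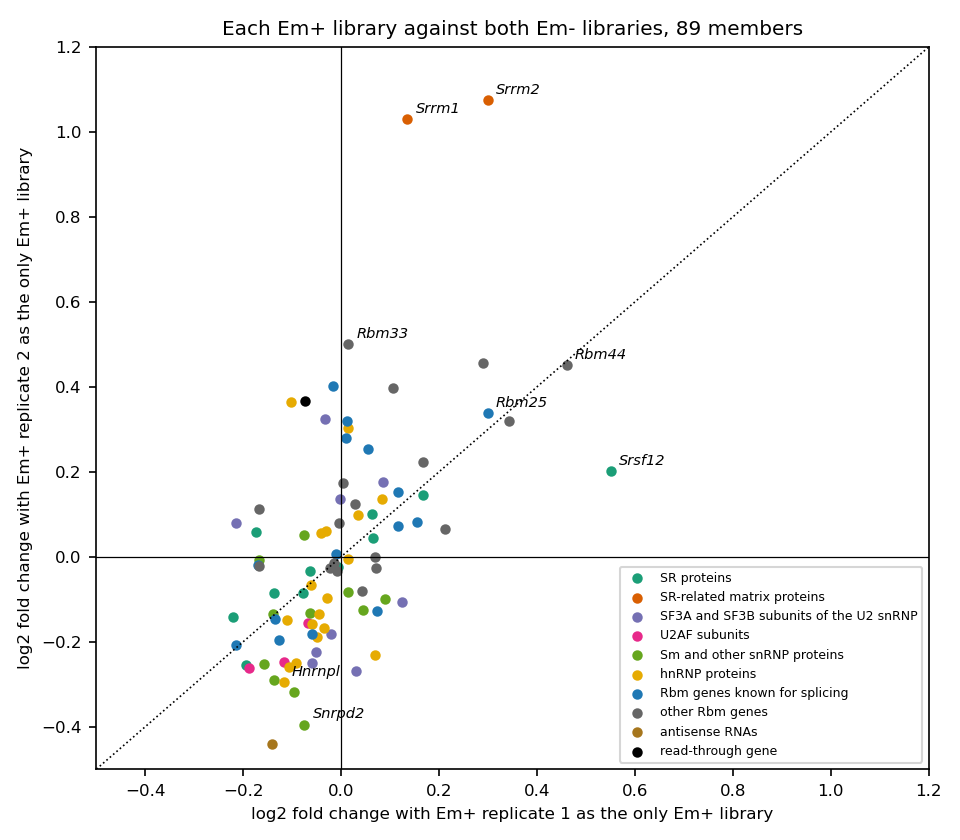
Log2 fold change of the 89 members with Em+ replicate 1 (horizontal) or Em+ replicate 2 (vertical) as the only Em+ library, both against the same 2 Em- libraries; colours give the role and the dotted line marks equal values. Rbm44 and Rbm25 lie on the dotted line at about 0.46 and 0.3, whereas Srrm1 and Srrm2 lie far above it at 1.03 and 1.07.

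Of the 11 SR proteins, 0 were called in either direction (4 had an unadjusted edgeR p under 0.05) and the median log2 fold change was -0.05. Their summed level was 463.8 and 464.7 scaled FPKM in Em+ libraries and 470.1 and 467.9 in Em- libraries, a nearly level total. Srsf7 was the most abundant, at 78.6 and 77.7 in Em+ libraries and 79.4 and 78.5 in Em- libraries, with a log2 fold change of -0.02. Srsf1, the founding member and a broad enhancer of exon use, was at 70.1 and 69.8 in Em+ libraries and 73.4 and 74.6 in Em- libraries (log2 fold change -0.08, 95% interval 0.838 to 1.07-fold). Srsf3, the shortest of the classical SR proteins, was at 47.8 and 48.8 in Em+ libraries and 50.0 and 49.8 in Em- libraries (log2 fold change -0.05). The libraries of the groups did not overlap for Srsf1 and Srsf3, and neither difference passed the test.

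Srsf5 and Srsf10 had replicates close together and groups apart. Srsf5 was at 82.1 and 80.8 scaled FPKM in Em+ libraries and 73.5 and 72.6 in Em- libraries (1.12-fold, log2 fold change 0.16, edgeR adjusted p = 0.170). That direction holds relative to the median gene, since with the authors' library totals as the only scaling its log2 fold change was -0.0019. Srsf10, a factor that becomes a repressor of splicing on dephosphorylation in heat shock, was at 12.8 and 13.5 in Em+ libraries and 14.7 and 15.1 in Em- libraries (0.883-fold, log2 fold change -0.18, edgeR adjusted p = 0.156). Srsf12 was the rarest SR protein and had the largest fold change among them, with 1.56 and 1.23 in Em+ libraries and 1.02 and 1.11 in Em- libraries (log2 fold change 0.39, edgeR adjusted p = 0.182).

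The 3 U2AF subunits all had negative log2 fold changes, as had 5938 of all 12050 genes tested. Of the subunits 0 were called (1, U2af1, at an unadjusted edgeR p under 0.05). U2AF1 reads the AG at the end of the intron and U2AF2 the pyrimidine tract before it. U2af1 (chromosome 17) was at 25.03 and 23.7 scaled FPKM in Em+ libraries, against 28.8 and 28.2 in Em- libraries. Both Em+ values lay below both Em- values, by 0.857-fold on average (log2 fold change -0.22, SE 0.08, edgeR adjusted p = 0.130). U2af2 was at 13.5 and 12.3 in Em+ libraries and 14.8 and 14.4 in Em- libraries, also without overlap (log2 fold change -0.18, edgeR adjusted p = 0.217). Without Em+ replicate 1 both were called lower (edgeR adjusted p of 0.00532 and 0.00609), and without Em+ replicate 2 they were not (0.0511 and 0.173).

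Of the 9 SF3A and SF3B subunits, which form the U2 snRNP's grip on the branch point, 4 had positive and 5 negative log2 fold changes and 0 were called (0 also at an unadjusted edgeR p under 0.05). Their summed level was 309.2 and 284.9 scaled FPKM in Em+ libraries and 310.1 and 305.3 in Em- libraries, so Em+ replicate 2 was the low library. Sf3b1, the subunit that clasps the branch-point helix and is mutated in human blood cancers, was the most abundant, at 80.8 and 72.3 in Em+ libraries and 81.8 and 82.1 in Em- libraries. Its log2 fold change was -0.10 (SE 0.09, edgeR adjusted p = 0.516), with a 95% interval of 0.809 to 1.08-fold. It was -0.18 without Em+ replicate 1, where it was called (edgeR adjusted p = 0.00157), and -0.02 without Em+ replicate 2 (0.682). Sf3a2 had the largest change of the group, at 4.53 and 5.80 in Em+ libraries and 4.25 and 5.01 in Em- libraries, which overlap (log2 fold change 0.15, edgeR adjusted p = 0.544). With Em+ replicate 2 left out, that value turned to -0.03.

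Among the 11 Sm and other snRNP proteins, 10 had a negative and 1 a positive log2 fold change, with a median of -0.10, and 0 were called (2 at an unadjusted edgeR p under 0.05). Of all 12050 genes tested, 5938 were negative. Genes share their libraries, so their signs are not independent. The Sm proteins form the ring around the snRNA of the major spliceosomal snRNPs. The summed level was 326.1 and 300.6 scaled FPKM in Em+ libraries and 335.7 and 339.6 in Em- libraries, and Em+ replicate 2 was again the lowest. Snrpd2 showed the largest change, at 20.3 and 16.3 in Em+ libraries and 21.6 and 21.2 in Em- libraries (log2 fold change -0.22, SE 0.12, edgeR adjusted p = 0.302), and at -0.08 without Em+ replicate 2. Snrpd3, the most abundant, was at 62.7 and 55.7 in Em+ libraries and 59.0 and 62.4 in Em- libraries (log2 fold change -0.04), and Snrpb at 42.5 and 39.6 in Em+ libraries and 41.6 and 42.4 in Em- libraries (log2 fold change -0.03). Both overlapped between the groups, and the sign of both turned without Em+ replicate 2. Without Em+ replicate 1, 5 of the 11 were called lower, against 19.5% of all genes, and without Em+ replicate 2, 0 were, against 6.9%.

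Of 20 hnRNP proteins 18 could be tested, 7 with positive and 11 with negative log2 fold changes, and 0 were called (1, Hnrnpl, at an unadjusted edgeR p under 0.05). Hnrnpl, which binds CA-rich RNA, was the most abundant of the hnRNP genes in the RefSeq table and had the largest log2 fold change among those tested, at 110.1 and 97.3 scaled FPKM in Em+ libraries and 119.1 and 119.6 in Em- libraries (0.869-fold, log2 fold change -0.20, edgeR adjusted p = 0.175). Both Em+ values lay below both Em- values, and Em+ replicate 2 was the lower of them. Hnrnpa2b1, known for binding RNA with m6A marks and for sorting microRNAs, was at 92.0 and 87.8 in Em+ libraries and 94.8 and 92.8 in Em- libraries (log2 fold change -0.06, edgeR adjusted p = 0.591; -0.10 without Em+ replicate 1, where it was called, and -0.03 without Em+ replicate 2). Hnrnpk, which binds C-rich RNA, was at 27.2 and 22.0 in Em+ libraries and 25.7 and 26.0 in Em- libraries (log2 fold change -0.07, edgeR adjusted p = 0.682), and its sign turned without Em+ replicate 2 (0.07).

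The level of some hnRNP genes depended on the annotation. Hnrnpa1 had only 25 and 29 counts in Em+ libraries and 34 and 70 in Em- libraries in the RefSeq table. In the Ensembl table it had 4193 and 3691 counts in Em+ libraries and 4099 and 4328 in Em- libraries. In the known-gene table it had 52 and 5546 counts in Em+ libraries and 60 and 129 in Em- libraries, so that Em+ replicate 2 alone was high. Hnrnpa1 has many near-identical pseudogene copies, the handling of reads that match several places is not given in the sources used here, and no level is drawn from these values. Hnrnpa3, with 4 and 2 counts in Em+ libraries and 5 and 4 in Em- libraries in the RefSeq table, had 841 and 926 in Em+ libraries and 823 and 897 in Em- libraries in the Ensembl table. Hnrnpk, with 1 RefSeq transcript, reached 105.7 and 97.96 scaled FPKM in Em+ libraries and 100.3 and 103.1 in Em- libraries in the known-gene table. Over its 21 Ensembl models it summed to 418.7 and 386.9 in Em+ libraries and 415.0 and 401.6 in Em- libraries, above the 365.9 and 320.1 in Em+ libraries and 389.6 and 399.7 in Em- libraries of Hnrnpl in that table. Of 86 tested members compared, 37 had a summed Ensembl level over 2 times their RefSeq level and 4 had a RefSeq level over 2 times the Ensembl level. A total of 29 members have 2 or more RefSeq transcripts, and in 22 of them a single transcript held over 95% of the counts. In 13 of them some transcripts carried identical counts in all 4 libraries, so shares of isoforms cannot be read from the table in those genes.

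Where RefSeq transcripts of a member did differ in share, the differences were small. The largest without overlap was in Rbm10, a regulator of exon skipping. NM_145627 took 82.0% and 83.0% of its counts in Em+ libraries, against 80.7% and 78.7% in Em- libraries, and NM_001167775 took 17.5% and 15.8% against 18.9% and 19.5%. The mean share of NM_145627 was 2.81 percentage points higher in Em+ cells, and the Em- replicates differ among themselves by a similar amount. The next was NM_001166432 of Hnrnpf, with 2.01% and 1.85% in Em+ libraries and 1.29% and 1.58% in Em- libraries, from 38 and 29 counts against 25 and 33. NM_001285825 of Snrpa took 98.7% and 99.2% in Em+ libraries and 98.7% and 98.5% in Em- libraries. These were picked as the largest non-overlapping differences and carry no test.

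Of the 18 Rbm genes with a known part in splicing, 15 were tested, 8 with positive and 7 with negative log2 fold changes, and 0 were called (2, Rbm25 and Rbm38, at an unadjusted edgeR p under 0.05). Rbm39, a cofactor that resembles U2AF2, was the most abundant, at 94.6 and 90.1 scaled FPKM in Em+ libraries and 104.4 and 102.2 in Em- libraries (0.894-fold, log2 fold change -0.16, edgeR adjusted p = 0.209). Rbm38, a p53 target that binds and stabilises RNA, was at 11.4 and 11.5 in Em+ libraries and 13.4 and 13.1 in Em- libraries (0.864-fold, log2 fold change -0.21, edgeR adjusted p = 0.137). In both genes the groups were separate.

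Of the 19 other Rbm genes, 18 were tested, 12 with positive and 6 with negative log2 fold changes, and Rbm44 alone was called. An unadjusted edgeR p under 0.05 was reached by 4 of them (Rbm12b2, Rbm26, Rbm27 and Rbm44), against 25.3% of all genes. Of all genes tested, 6112 had positive and 5938 negative log2 fold changes. Rbm27, which in human cells takes part in feeding polyadenylated RNA to the nuclear exosome, was at 12.7 and 13.2 scaled FPKM in Em+ libraries and 11.4 and 11.3 in Em- libraries (1.15-fold, log2 fold change 0.20, edgeR adjusted p = 0.114). Rbm15, a subunit of the m6A methyltransferase complex and the most abundant gene of this group, was at 27.5 and 29.3 in Em+ libraries and 26.2 and 27.6 in Em- libraries, which overlap (log2 fold change 0.08, edgeR adjusted p = 0.502; 0.03 without Em+ replicate 2). Its sign turned with the authors' library totals as the only scaling, at -0.09. The read-through gene Rbm14-rbm4 overlaps Rbm14 and Rbm4 and may share reads with them. It was at 12.2 and 16.6 in Em+ libraries and 12.6 and 13.2 in Em- libraries, with Em+ replicate 2 alone high (log2 fold change 0.16, edgeR adjusted p = 0.479, and -0.07 without Em+ replicate 2). The antisense RNA Rbm3os was at 2.58 and 2.09 in Em+ libraries and 2.85 and 2.83 in Em- libraries (log2 fold change -0.28, edgeR adjusted p = 0.344; -0.14 without Em+ replicate 2), and without known use of strand its reads cannot be separated from those of genes it overlaps.

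A list of 165 other splicing genes was compared in the same fit: proteins of the U1, U4/U6.U5 and minor snRNPs, Lsm proteins, Prp19 and later-step proteins, helicases, the exon junction complex, SR protein kinases, snRNP assembly factors and further regulators. Of these, 164 are in the table and 159 were tested. A total of 3 were called higher and 0 lower, with a median log2 fold change of 0.00, beside the 3.82% and 0.822% of all genes. At an unadjusted edgeR p under 0.05 there were 32 of the 159, against 25.3% of all genes. DESeq2 called 4 higher and 1 lower, against 4.38% and 1.25% of all genes. The 3 are among the 27 Prp19 and later-step proteins.

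Cwc22, which brings the exon junction helicase to the spliceosome, had the largest difference of any splicing gene listed. It was at 20.3 and 24.6 scaled FPKM in Em+ libraries, against 5.35 and 5.29 in Em- libraries (log2 fold change 2.08, SE 0.10, edgeR adjusted p = 2.3e-05). The groups were far apart, and the log2 fold change was between 1.93 and 2.21 without any 1 library. Cwc22 lies in a segment with extra copies in some mouse strains, and reads of such copies cannot be told apart here. Aqr, an intron-binding protein with a helicase fold, was at 28.6 and 31.7 in Em+ libraries and 20.5 and 20.9 in Em- libraries (log2 fold change 0.54, SE 0.07, edgeR adjusted p = 0.00588). Its call was kept without each library in turn. Cwc25, which acts at the first step of splicing in yeast, was at 5.82 and 6.06 in Em+ libraries and 4.33 and 4.41 in Em- libraries (log2 fold change 0.44, SE 0.08, edgeR adjusted p = 0.0200), and its call was lost without either Em- library (0.128 and 0.0732).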

How the data were processed

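RNA-seq of 2 Em+ and 2 Em- libraries was analysed from 4 tables of transcripts (RefSeq, known-gene, Ensembl, ENCODE). Per the file headers, the authors deposited a count and an FPKM value for each transcript and library. Per the submitters' processing notes, Bowtie2 (version not given) and mm10 were used. The sources used here do not give the counting program, its use of strand or its handling of reads with several matches. Groups follow the sample titles and the cell type field; in all 4 samples the free-text description gives the other fraction.

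The deposited count column of Em- replicate 1 holds no counts in the RefSeq and Ensembl tables, so these were computed from FPKM, length and the library total. This returned the exact count for at least 99.95% of RefSeq transcripts in the other libraries. For Em- replicate 1 it was checked on 13036 transcripts whose RefSeq and known-gene counts were equal in the other libraries. Of these, 99.48% were exact. Transcript values were summed per symbol. Scaled FPKM is the deposited FPKM times 0.977 and 1.15 (Em+ replicates 1 and 2) or 0.946 and 0.943 (Em- replicates 1 and 2).

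edgeR 4.0.16 in R 4.3.3 (quasi-likelihood, TMM, two-sided, no covariate, common biological variation 0.0731) tested 12050 genes; DESeq2 1.42.0 and limma 3.58.1 on log2(FPKM + 1) were alternatives, with other scalings, filters, tables and left-out libraries. Members and lists were chosen with earlier results of these data known. The text names every called member, the most abundant and the most changed member of each role, 11 listed genes, and members called without either Em+ library; other genes, and the single-transcript fits of 3 tables, were chosen after their values were seen. Coordinates are 1-based on mm10. Intervals cover the spread between libraries.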

Additional observations from a re-analysis of the deposited data

How the results depend on the processing

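Members called higher numbered 1 of 89 in the fit as reported; 5 with the replicate number as a block; 2 with DESeq2 and with the known-gene, Ensembl and ENCODE tables; 0 with the authors' library totals as the only scaling and with limma on log2(FPKM + 1), log2(FPKM + 0.1) and log2(FPKM + 1) unfiltered; and 2 to 21 with a library left out. Members called lower numbered 0 in all of these except left-out libraries, at 0 to 25. All genes called higher were 460 as reported, 1090 with the block, 887 unfiltered, 148 at a mean FPKM of at least 5, 226, 215 and 266 with the 3 limma fits and 457 to 2642 with a library left out. All genes called lower were 99 as reported, 462 with the block, 293 with library totals only, 291 unfiltered, 23 at the higher filter, 151 with DESeq2, 54 and 11 with limma on log2(FPKM + 0.1) and unfiltered, and 33 to 2350 with a library left out. The replicate numbers share no stated source and deviations of same-numbered libraries did not correlate (r = 0.00337), so the block is no pairing. For the known-gene, Ensembl and ENCODE tables the share of all genes called is not given here. The counts of members, and of the other splicing genes below, called there are therefore not compared with a background.

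Other splicing genes called higher were 3 as reported, 11 with the block, 5 unfiltered and with the Ensembl and ENCODE tables, 1 with library totals only and with each limma fit, and 5 to 42 with a library left out. Those called lower were 1 with upper-quartile scaling, library totals only, no filter, the block and DESeq2, and 0 to 37 with a library left out. Ensembl transcripts of members called were 16 as reported (4.51%, against 2.35% of all Ensembl transcripts), 32 with the block (9.01%, against 6.6%), 8, 7 and 4 with the limma fits (2.25%, 1.97% and 0.766%, against 1.39%, 1.29% and 0.415%), and 13 to 110 with a library left out (3.66% to 31.0%, against 1.67% to 25.7%, the highest without Em+ replicate 1).

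The median log2 fold change of members was -0.0192 as reported, -0.0271 with upper-quartile scaling, -0.176 with library totals only, -0.0766 unfiltered, 0.0156 at the higher filter, -0.0154, -0.0229 and -0.0286 with the known-gene, Ensembl and ENCODE tables, -0.1706, -0.181 and -0.164 with the limma fits, and -0.0298 to -0.0134 with a library left out. Over all genes it was 0.0032 as reported, -0.0049, -0.1565 and 0.0287 with upper-quartile scaling, library totals only and no filter, 0.0099 and 0.0091 with the Ensembl and ENCODE tables, -0.1352, -0.1596 and -0.0335 with the limma fits, and -0.0024 to 0.0035 with a library left out.

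Some small differences changed sign. With a library left out, Hnrnpk ranged over -0.2325 to 0.0693, Rbm14-rbm4 over -0.0732 to 0.3676, Sf3a2 over -0.0337 to 0.3249, Snrpb over -0.0832 to 0.0144 and Snrpd3 over -0.1247 to 0.0452, with the opposite sign without Em+ replicate 2 (Snrpd3 also without Em- replicate 2, at 0.0061). At the higher filter Snrpb was at 0.0054, Snrpd3 at 0.0020 and Srsf7 at 0.0232. With library totals only and the 3 limma fits in turn, Rbm14-rbm4 was at -0.0125, -0.0149, -0.0161 and -0.0149, Rbm15 at -0.0859, -0.0838, -0.0866 and -0.0838, Sf3a2 at -0.0156, -0.0100, -0.0113 and -0.0100, and Srsf5 at -0.0019, -0.0072, -0.0074 and -0.0072; these 4 settings also lower the median of all genes. ENSMUST00000182004 of Rbm25 stayed called under every setting run, at 3.50 to 4.82. The cause of the other changes was not tested, and with 2 libraries a group and an Em+ pair that differs by more than the Em- pair, differences near the size of those above could not be resolved.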
